A study of Mus musculus with 8 samples.

Results

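Interferon-stimulated genes are the genes that cells switch on when interferons, the cytokines of antiviral defence, bind their receptors. They were picked here by name from the authors' table of the mouse molar: IFIT, IFITM, OAS, MX, PYHIN (the Ifi200 family), guanylate-binding protein (GBP) and immunity-related GTPase (IRG) genes, transcription factors of the pathway such as Stat2 and the interferon regulatory factors, and a set of single effectors such as Isg15 and Rsad2. The names match 77 of the 17631 genes in that table. The libraries came from the apical part of lower first molars of C57BL/6 mice aged 7.5 postnatal days, with 4 libraries in each of 2 groups. Control animals were Runx2fl/fl, with floxed copies of the bone transcription factor Runx2. Mutant animals were Gli1-CreERT2;Runx2fl/fl, which add to these copies a recombinase that tamoxifen switches on in cells with an active Gli1 locus. The labels give tamoxifen at postnatal day 3.5, 1.5 mg per 10 g of body weight into the peritoneum, in the records of both groups. Only the mutants carry the recombinase, so the driver and the loss of Runx2 cannot be told apart, and it is not stated whether a library is 1 animal or a pool.

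Type I interferons act through the kinases JAK1 and TYK2 and a complex that holds STAT2 and IRF9 and binds the interferon-stimulated response element. Type II interferon, interferon gamma, acts through JAK1 and JAK2 and a transcription factor dimer that binds the gamma-activated site, and many targets then need IRF1 as well. Many targets answer to both types. Resting tissues keep a low, steady expression of these genes, and macrophages and endothelial cells are known for it. In the skeleton, interferons restrain osteoclast formation. By the lists used here, 36 of the 77 genes were treated as mainly type I targets, 18 as mainly type II targets, and 23 were left unassigned. The type II targets were the GBP genes, the IRG genes (Ifi47 among them), Ifi30, Irf1 and Irf8. The unassigned genes included the IFITM and PYHIN genes.

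The response elements of these genes are short and lie close to the start of transcription. To show what the 2 classes share, the 150 bases before the RefSeq start (GRCm38.p6) are printed for 5 members with an element and for Ifitm5, which has none. Capitals mark matches to the response element core, GAAA then any 2 bases then GAAA, or to its reverse complement, including overlapping ones. Isg15 (chr4:156200819-156200968, minus strand), Ifit1 (chr19:34640739-34640888, plus) and Oas1a (chr5:120907526-120907675, minus) are type I targets. Gbp2 (chr3:142620513-142620662, plus) and Irgm2 (chr11:58214827-58214976, plus) are type II targets, and Ifitm5 lies at chr7:140950244-140950393 (minus).
Isg15: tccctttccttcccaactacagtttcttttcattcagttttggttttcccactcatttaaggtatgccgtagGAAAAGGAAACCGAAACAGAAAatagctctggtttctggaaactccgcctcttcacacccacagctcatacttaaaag
Ifit1: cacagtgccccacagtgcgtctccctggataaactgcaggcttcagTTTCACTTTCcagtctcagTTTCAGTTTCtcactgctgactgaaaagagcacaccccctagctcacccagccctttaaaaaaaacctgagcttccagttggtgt
Oas1a: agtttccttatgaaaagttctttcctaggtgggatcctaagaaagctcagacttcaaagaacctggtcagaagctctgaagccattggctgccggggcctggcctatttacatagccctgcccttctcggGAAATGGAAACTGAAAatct
Gbp2: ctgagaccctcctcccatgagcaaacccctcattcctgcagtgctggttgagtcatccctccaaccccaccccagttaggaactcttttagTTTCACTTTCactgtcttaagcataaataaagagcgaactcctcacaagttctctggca
Irgm2: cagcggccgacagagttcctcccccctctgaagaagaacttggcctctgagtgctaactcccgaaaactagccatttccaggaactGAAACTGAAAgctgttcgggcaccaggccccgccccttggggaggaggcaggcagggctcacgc
Ifitm5: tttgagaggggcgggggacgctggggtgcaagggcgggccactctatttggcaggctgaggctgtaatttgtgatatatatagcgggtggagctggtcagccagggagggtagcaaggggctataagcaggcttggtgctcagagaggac
Isg15 held 3 overlapping matches, the first starting 78 bases before the start of transcription. Ifit1 held 2, starting 104 and 85 bases before it, and Oas1a 2, starting 20 and 14 bases before it. Gbp2 and Irgm2 held 1 each, at 59 and 64 bases. Irgm2 also held the gamma-activated site core (TTC then any 3 bases then GAA), at 75 bases, and Oas1a held 1 at 98 bases. This core reads the same on both strands.

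RefSeq windows of 300 bases (250 before the start, 50 after) were at hand for 58 of the 77 genes, 69 windows in all. Of the 2 cores, the response element stood in 49.3% of these windows and in 3.06% of the 15371 windows of all genes of the table. The gamma-activated core stood in 23.2% and 6.79%. The response element core stood in 8 of the 15 windows of type II targets (53.3%) and in 16 of the 31 of type I targets (51.6%). The gamma-activated core stood in 6 of the 15 type II windows (40.0%) and in 5 of the 31 type I windows (16.1%). A match describes the letters of the window and is not a measured binding site.

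Most interferon-stimulated genes had a higher mean in the mutant, but no single gene passed the authors' test. Of the 77, 63 had a higher mean in the mutant (81.8%), against 50.6% of all genes. The median log2 ratio of mutant over control was 0.40 over the 77 genes and 0.003 over all genes. At an adjusted p under 0.05 in the authors' deposited table, a gene-specific analysis in Partek, 0 of the 77 genes were called, against 0.788% of all genes. None was called at an adjusted p under 0.10 either (3.64% of all genes), and the lowest adjusted p among them was 0.136. At an unadjusted p under 0.05, 13 were higher (16.9%, against 9.89% of all genes) and 1 was lower (1.30%, against 9.40%). Those 14 genes together make 18.2% of the members, a share near the 19.3% of all genes. The table holds group means and p-values and no values of single libraries, so no spread between libraries and no overlap of the groups can be given for any gene. Unless another origin is given, every mean, ratio and p of a gene is the authors' own. In whole tissue, more cells of a type that expresses these genes and more RNA per cell cannot be told apart.

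**Figure D1:**
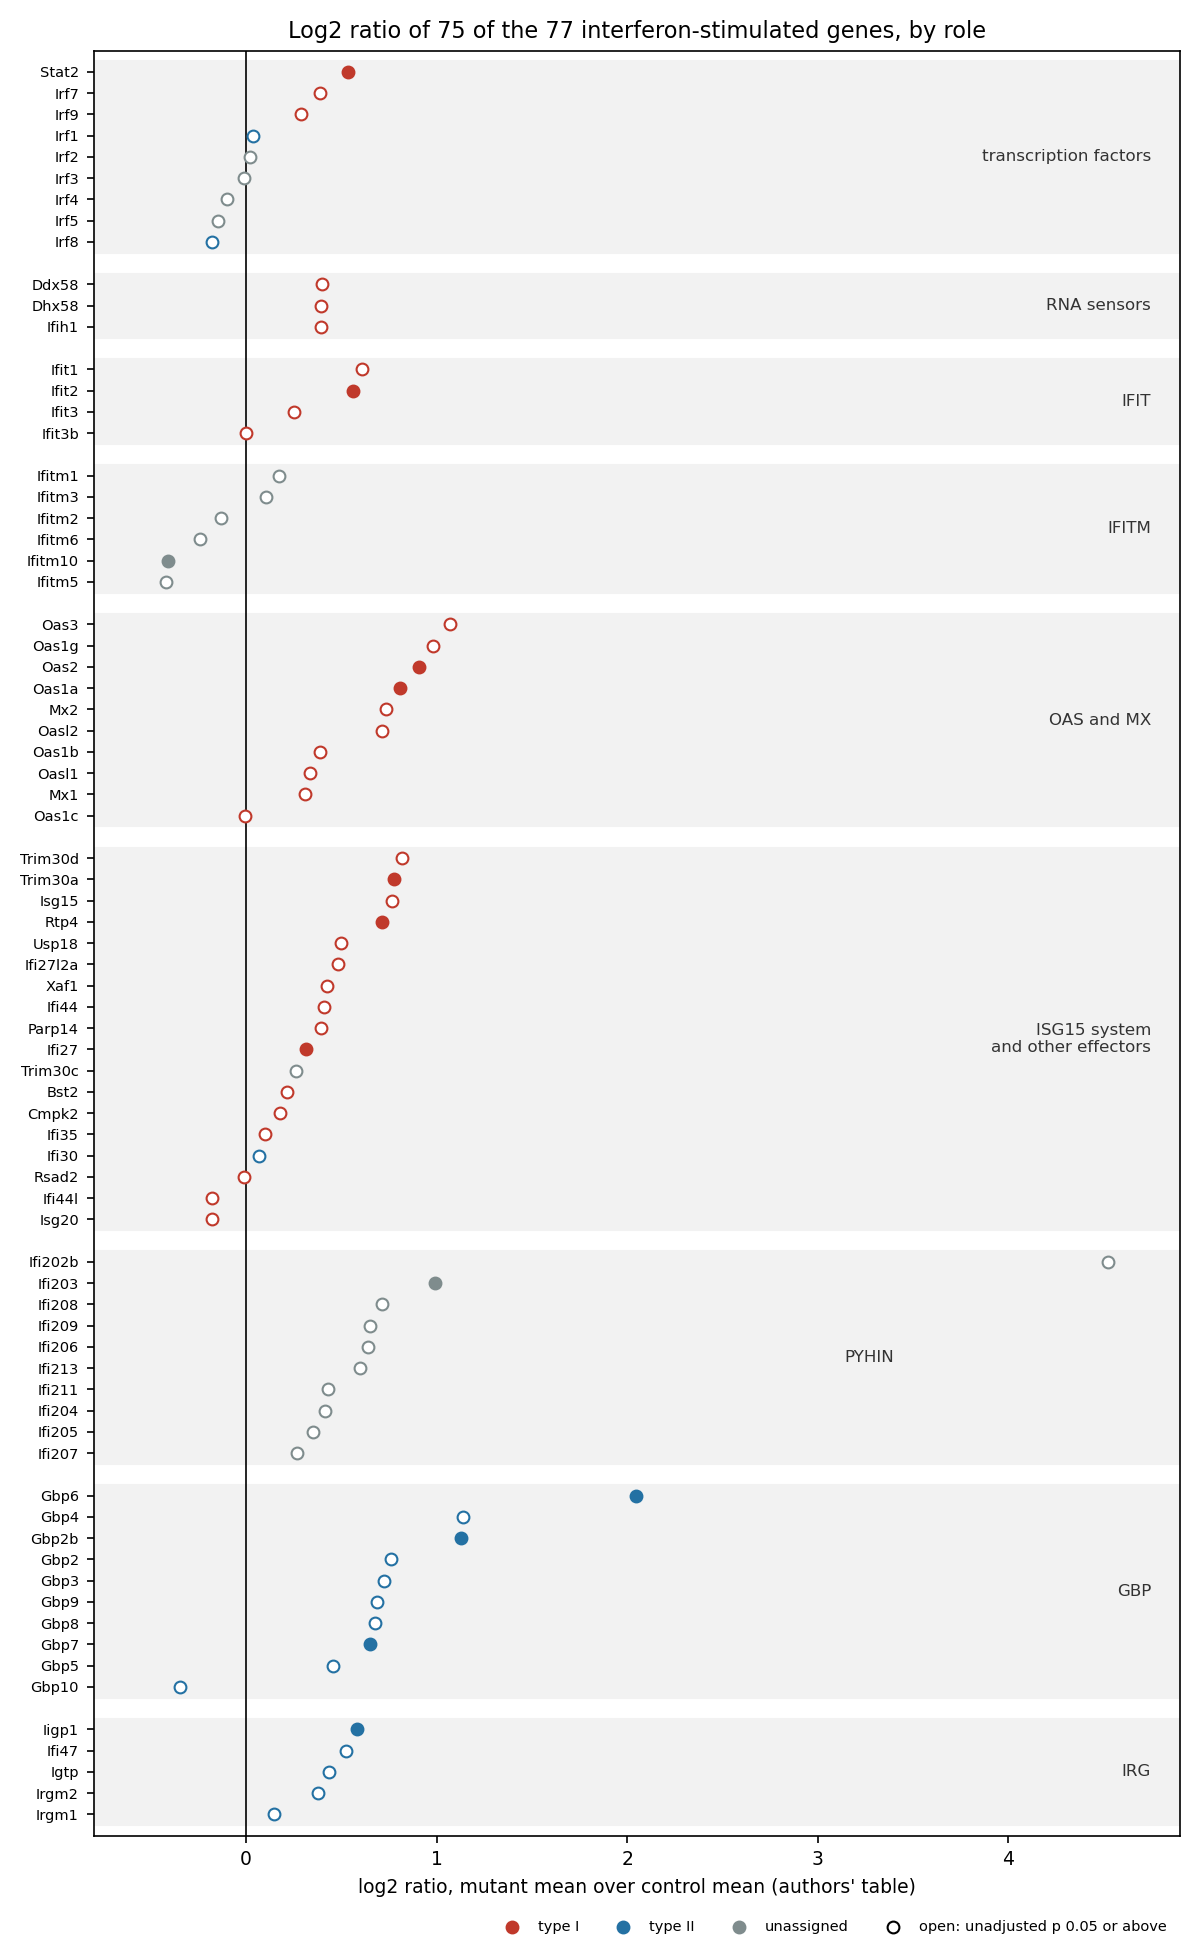
Log2 ratio (mutant mean over control mean) of 75 of the 77 genes, grouped by role, with filled points for an unadjusted p under 0.05 and colour for the type I, type II or unassigned list. The OAS, PYHIN, GBP and IRG genes lie mostly to the right of 0, the IFITM genes on both sides, and Ifi202b stands apart at 4.52.

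The genes were expressed at low levels in this tissue. The higher of the 2 group means had a median of 4.69 over the members, in the authors' normalised signal, against 11.8 over all genes, and 14 of the 77 stayed under 1. The lowest was Mx1 (0.217 in the mutant, 0.175 in the control) and the highest Ifitm2 (166.1 and 181.6). Scaled to exonic length, Ifitm2 also led, at 253.5 per kilobase in mutants and 277.2 in controls, followed by Ifitm3 (87.9 and 81.6) and Ifi30 (41.6 and 39.7). The length-scaled level of the interferon sentinel Isg15 was 5.09 in mutants and 2.99 in controls. How the signal was normalised is not given. If it already allows for length, these values per kilobase correct for length again. The share with a higher mean was also counted among the more abundant members. Of the 63 members with a higher mean of at least 1, 53 were higher in the mutant (84.1%, against 50.7% of all genes at that level). Of the 18 at or above the median of all genes, 14 were higher (77.8%, against 47.2%). Log2 ratios of at least 0.5 were found in 30 of the 77 members (39.0%, against 6.93% of all genes) and in 6 of those 18 (33.3%, against 1.78%).

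**Figure D2:**
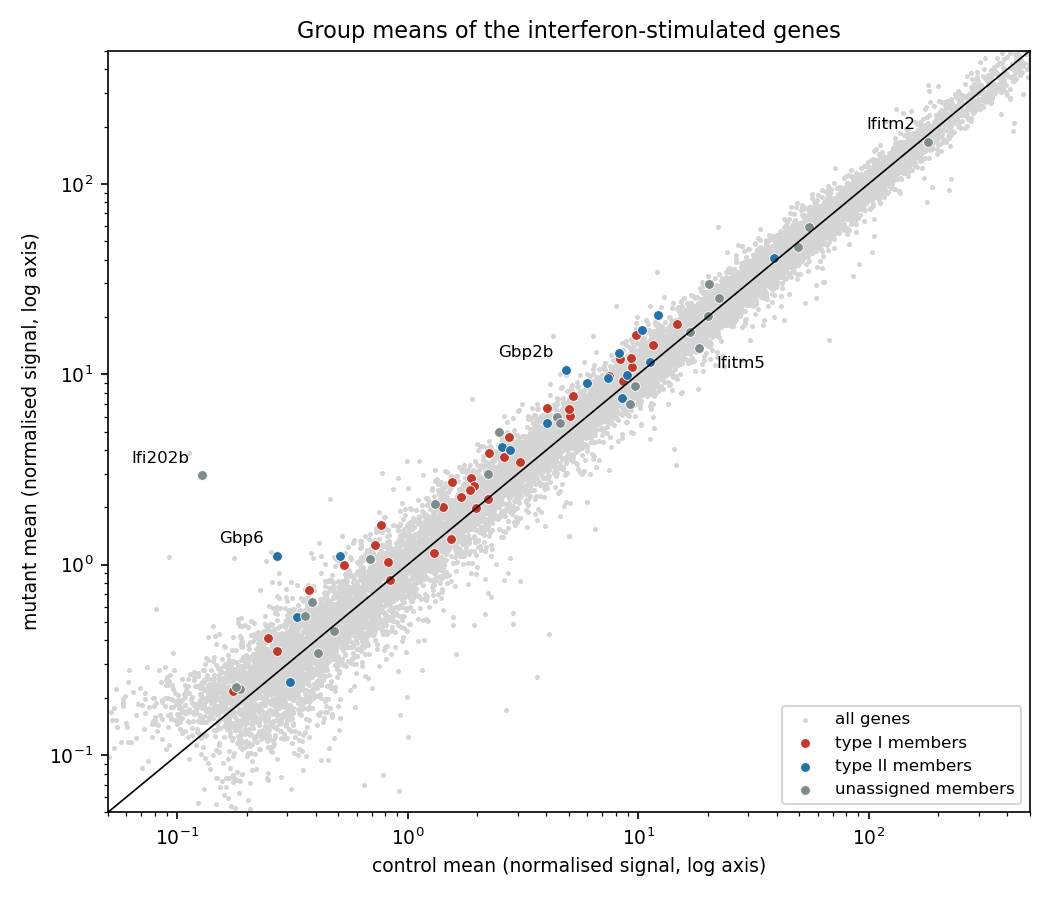
Mutant mean against control mean in the authors' normalised signal, both on log axes, with all genes in grey and the members coloured by list; the line marks equal means. Most members lie just above the line between 0.2 and 40, while Ifitm5 lies under it and Ifi202b and Gbp6 far above it.

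Among the transcription factors, Stat2, a subunit of the type I complex, averaged 12.1 in mutants and 8.33 in controls (ratio 1.45, the authors' adjusted p = 0.192). Irf9, the DNA-binding part of that complex, had 14.2 and 11.6 (the authors' adjusted p = 0.466), and Irf7, which amplifies type I interferon production, 9.80 and 7.48 (adjusted p = 0.658). Several other regulatory factors lay close to equal means. Irf1, the main relay of interferon gamma, averaged 11.6 in mutants and 11.3 in controls (the authors' adjusted p = 0.946). Irf2 and Irf3 had log2 ratios of 0.02 and -0.01, and Irf8 and Irf5, factors of the myeloid lineage, -0.18 and -0.15. Of the 11 transcription factor genes 6 had a higher mean, with a median log2 ratio of 0.02.

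The 3 sensors of viral RNA differed by nearly the same ratio. Ddx58, which encodes RIG-I, averaged 12.2 in mutants and 9.26 in controls (log2 ratio 0.40, the authors' adjusted p = 0.343). Ifih1, a sensor of long double-stranded RNA, had 6.59 and 5.02 (log2 0.39, the authors' adjusted p = 0.403), and their regulator Dhx58 had 2.46 and 1.87 (log2 0.40, adjusted p = 0.513).

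The IFIT genes, whose proteins bind foreign RNA, lie side by side on chromosome 19 (34550694 to 34650009, GRCm38). Ifit2 averaged 7.69 in mutants and 5.21 in controls, a ratio of 1.48 (the authors' unadjusted p = 0.0128, adjusted p = 0.155). Ifit1 had 2.87 and 1.88 (the authors' adjusted p = 0.294), Ifit3 6.02 and 5.06 (adjusted p = 0.549), and its near copy Ifit3b 1.98 in both groups (adjusted p = 0.905). The first 2 differed by log2 0.61 for Ifit1 and 0.56 for Ifit2, whereas the pair of Ifit3 copies stood at 0.25 and 0.0006. Reads can be split between these copies, so their separate values are uncertain.

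The oligoadenylate synthetases, which activate RNA decay in infected cells, and the MX GTPases had the highest median among type I families (log2 0.72, 9 of 10 higher). Oas2 had the lowest unadjusted p of all members (0.00914), averaging 0.995 in mutants and 0.529 in controls, a ratio of 1.88 (the authors' adjusted p = 0.136). Oas1a had 2.72 and 1.56 (the authors' adjusted p = 0.255), and Oasl2, the most abundant of the family by group mean, 16.0 and 9.77 (ratio 1.64, adjusted p = 0.270). Oas3 had a log2 ratio of 1.07 and Oas1g of 0.98, both at means under 2, and Oas1c stood at -0.005. Of these 10 genes 6 never reached a mean of 1. The 6 genes of the Oas cluster on chromosome 5 (120730333 to 120907521) share similar sequence, and the split of reads between Oas1 copies is uncertain.

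Among the other effectors 15 of 18 had a higher mean, with a median log2 ratio of 0.35. Isg15, a ubiquitin-like modifier, averaged 3.85 in mutants and 2.26 in controls (ratio 1.70, the authors' adjusted p = 0.271), and Usp18, the protease that removes it and dampens type I signalling, had 2.02 and 1.43 (adjusted p = 0.496). Trim30a had 4.69 and 2.74 (ratio 1.71, the authors' unadjusted p = 0.0170, adjusted p = 0.171), and Rtp4, a receptor chaperone, 6.63 and 4.04 (ratio 1.64, adjusted p = 0.190). Ifi27 had 18.4 and 14.8 (the authors' adjusted p = 0.217). These 3 were the effectors with an unadjusted p under 0.05. Not every classical type I target shared the direction. Rsad2, which encodes viperin, averaged 2.20 in mutants and 2.22 in controls (the authors' adjusted p = 0.867). Isg20, an exonuclease gene, and Ifi44l had log2 ratios of -0.18 each. Cmpk2, the neighbour of Rsad2, did have a higher mean in the mutant, 3.47 against 3.06 (the authors' adjusted p = 0.726). Ifi30, a lysosomal reductase used in antigen processing, had 40.8 and 39.0 (the authors' adjusted p = 0.622).

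The IFITM genes, which encode small membrane proteins that block virus entry, did not lean towards the mutant as a family (2 of 6 higher, median log2 -0.19). The lowest ratios were those of Ifitm5 and Ifitm10, which are among 8 members treated here as better known for other roles. Ifitm6 averaged only 0.345 in mutants and 0.408 in controls. After the GC and length subtraction 3 of 6 were positive (median log2 -0.09), namely Ifitm1 (0.28), Ifitm3 (0.25) and Ifitm2 (0.04). Ifitm2 averaged 166.1 in mutants and 181.6 in controls (the authors' adjusted p = 0.555). When both groups were scaled to equal sums its log2 ratio went from -0.13 to 0.0085, so its direction depends on the scaling. Those sums differ mostly through the dental epithelium marker Amelx (112170 in mutants, 174950 in controls), and a scaling without Amelx was not run. Ifitm3 had 59.6 and 55.4 (the authors' adjusted p = 0.748), and Ifitm1 25.2 and 22.3 (adjusted p = 0.774). Ifitm5, known as a bone-restricted gene of osteoblasts and not as an interferon target, averaged 13.8 in mutants and 18.4 in controls (log2 -0.42, the authors' unadjusted p = 0.106, adjusted p = 0.352). In the same comparison all 5 osteoblast markers had lower means, and 2 of them fell in the authors' deposited table, Sp7 (117.7 against 154.8, adjusted p = 0.0447) and Bglap (1252 against 2234, adjusted p = 0.0484). After the GC and length subtraction neither was called (adjusted p of 0.191 and 0.320, recomputed from those of the authors). Of all genes, 0.788% were called as deposited and 0.194% after the subtraction. The log2 ratio of Ifitm5 went from -0.42 to -0.23 under the subtraction. Whether the lower mean of Ifitm5 is linked to those of the osteoblast markers was not tested. Ifitm10 was the 1 member lower at an unadjusted p under 0.05, with 6.94 and 9.23 (the authors' unadjusted p = 0.0146, adjusted p = 0.163). Ifitm5, Ifitm2, Ifitm1, Ifitm3 and Ifitm6 lie together on chromosome 7 with Irf7 (140948958 to 141266481), and this cluster had a median log2 ratio of -0.01.

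All 10 PYHIN genes, DNA sensors and regulators of chromosome 1 (173468485 to 174031810), had a higher mean in the mutant, with a median log2 ratio of 0.62. Ifi202b stood apart from every other member, averaging 2.96 in mutants and 0.128 in controls, a ratio of 23.0. Its unadjusted p was nevertheless 0.104 (the authors' adjusted p = 0.350), and the group means cannot show how many libraries carry the signal. Expression of Ifi202b is known to differ between inbred mouse strains, and whether strain background plays a part in this ratio was not tested. Its neighbour Ifi203 had 4.96 and 2.49 (ratio 1.99, the authors' unadjusted p = 0.0363, adjusted p = 0.228). The most abundant PYHIN genes by group mean were Ifi204, with 5.94 and 4.45 (the authors' adjusted p = 0.548), and Ifi207, with 5.52 and 4.59 (adjusted p = 0.637). These genes are close copies of each other, so the split of reads among them is uncertain.

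The GBP genes, GTPases that attack membranes around pathogens and are classical interferon gamma targets, had the highest median of the type II families (log2 0.71, 9 of 10 higher). Gbp6 (chromosome 5, 105270702 to 105293698) averaged 1.12 in mutants and 0.271 in controls, a ratio of 4.13 (the authors' unadjusted p = 0.00947, adjusted p = 0.138). Gbp7 had 12.9 and 8.24 (ratio 1.57, the authors' unadjusted p = 0.0286, adjusted p = 0.206), and Gbp2b 10.6 and 4.85 (ratio 2.18, unadjusted p = 0.0498, adjusted p = 0.259). The most abundant were Gbp2, with 20.6 and 12.1 (the authors' adjusted p = 0.289), and Gbp3, with 17.1 and 10.3 (adjusted p = 0.347). The GBP genes lie in 2 clusters. The 5 genes on chromosome 3 (142493978 to 142638008) were all higher with a median log2 of 0.73, and of the 5 on chromosome 5 (105014150 to 105293698) 4 were higher with a median of 0.69. The exception was Gbp10, at 0.242 and 0.308 (the authors' adjusted p = 0.813).

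All 5 IRG genes, GTPases of the same defence, had higher means (median log2 0.43). Iigp1 averaged 8.96 in mutants and 5.99 in controls, a ratio of 1.50 (the authors' unadjusted p = 0.0149, adjusted p = 0.163). Ifi47 had 4.01 and 2.78 (the authors' adjusted p = 0.278). Irgm2 had 9.57 and 7.37 (the authors' adjusted p = 0.296), while Irgm1 had 9.94 and 8.98 (adjusted p = 0.664).

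Most targets of both types had higher means in the mutant. Of the 36 type I targets 32 did (88.9%), with a median log2 ratio of 0.40 and a range from -0.18 to 1.07. Of the 18 type II targets 16 did so (88.9%), with a median of 0.55 and a range from -0.35 to 2.05. At an unadjusted p under 0.05, 7 type I targets (19.4%) and 4 type II targets (22.2%) were higher, against 9.89% of all genes, and none of either list was lower. After the subtraction of a trend on GC content and length, described further on, the order of these shares turned. Then 9 type I targets (25%) and 1 type II target (5.56%) were higher at a recomputed unadjusted p under 0.05, against 7.02% of all genes. The medians kept their order after the subtraction, at 0.48 for type II and 0.45 for type I. As deposited, the type II median exceeded the type I median by 0.16, but this order rested on the GBP genes. Without them the 8 other type II targets had a median of 0.26, under that of the type I targets. The difference between the classes was not tested, since the table has no values per library. The 23 unassigned genes had a median of 0.26, with 15 higher.

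**Figure D3:**
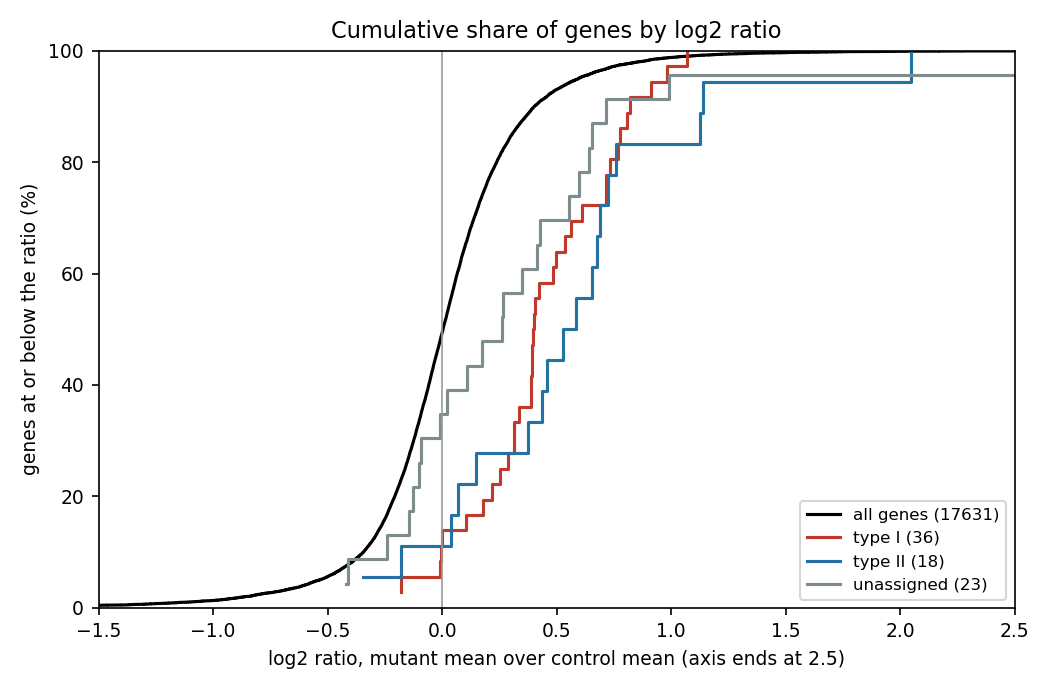
Cumulative share of genes (%) at or below each log2 ratio, for all genes and for the type I, type II and unassigned members. The type I and type II curves run close together to the right of that of all genes, with medians of 0.40 and 0.55 against 0.003.

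Genes upstream of the response were split between both directions. The 10 listed interferon genes have no row among those analysed here. Of 9 receptor and kinase genes 5 had a higher mean (median log2 0.01), and no adjusted p was under 0.05. Ifngr2, a chain of the interferon gamma receptor, averaged 38.5 in mutants and 44.4 in controls (the authors' unadjusted p = 0.0144, adjusted p = 0.163), and Ifnar2, of the type I receptor, 27.9 and 30.8 (adjusted p = 0.281). Of 14 genes of nucleic acid sensing 7 were higher (median log2 0.09). The DNA sensor Cgas had 2.15 and 1.53 (the authors' adjusted p = 0.208), and Eif2ak2, the RNA-activated kinase PKR, 20.6 and 15.9 (adjusted p = 0.259). Both are themselves known interferon targets. Of 10 negative regulators 5 were higher (median log2 0.003), with Nlrc3 at 0.515 and 0.377 (the authors' adjusted p = 0.401) and Ptpn6 at 18.1 and 16.6 (adjusted p = 0.486). Socs1, a feedback inhibitor that interferon gamma induces, had 4.11 and 4.13 (the authors' adjusted p = 0.988).

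Antigen presentation genes, which interferon gamma also induces, centred near equal means. Of 12 genes of the MHC class I path 6 had a higher mean and the median log2 ratio was 0.0005. After the GC and length subtraction 9 of the 12 were positive, with a median of 0.09. H2-D1, a class I heavy chain, averaged 89.5 in mutants and 104.2 in controls (the authors' adjusted p = 0.425), and the immunoproteasome gene Psmb8 10.2 and 8.80 (adjusted p = 0.545). Of 8 class II genes 3 were higher (median log2 -0.10), and 4 were positive after the subtraction (median -0.007). The lysosomal protease gene Ctss had 30.8 and 24.96 (the authors' unadjusted p = 0.0418, adjusted p = 0.240), and the class II activator Ciita 0.595 and 0.411 (adjusted p = 0.501). None of these lists held a gene called at an adjusted p under 0.05, and whether they differ from the GBP and IRG genes was not tested.

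Markers of macrophages, which express many of these genes, leaned the same way. Of 12 macrophage markers 11 had a higher mean (median log2 0.18), and their summed means came to 638.3 in mutants and 549.2 in controls. Mrc1, a mannose receptor, had 111.7 and 81.1 (the authors' unadjusted p = 0.00220, adjusted p = 0.0876), Cx3cr1 51.8 and 37.3 (adjusted p = 0.207) and Csf1r, which encodes the receptor for the growth factor of these cells, 140.4 and 130.2 (adjusted p = 0.661). In deposited means the members summed to 780.6 in mutants and 693.7 in controls, of which the IFITM genes made 271.9 and 287.3. Type I targets summed to 186.8 and 140.76, and type II targets to 172.2 and 131.85. Of 6 endothelial markers 5 were higher (median log2 0.11, sums 241.2 and 217.8), with Kdr at 52.6 and 41.6 (the authors' adjusted p = 0.213). The part of either cell type in the lean of the interferon-stimulated genes was not tested. Lymphocyte and dendritic cell markers were scarce. Of 8 T and NK cell markers only Cd4 was analysed here (6.16 and 5.58), which macrophages can also express, the 3 B cell markers summed to 2.45 and 2.53, and the 3 dendritic cell markers to 1.27 and 1.22. The 4 neutrophil markers summed to 14.4 and 13.2. The odontoblast gene Dspp (7360 and 7714) and the epithelial gene Krt5 (1222 and 1192) mark the tissue as tooth. Runx2 itself had 65.1 and 105.5 (the authors' adjusted p = 0.0646), and the 4 erythroid markers all had lower means, with Hba-a1 at 92.5 and 223.3 (adjusted p = 0.0484, and 0.310 recomputed after the GC and length subtraction).

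**Figure D4:**
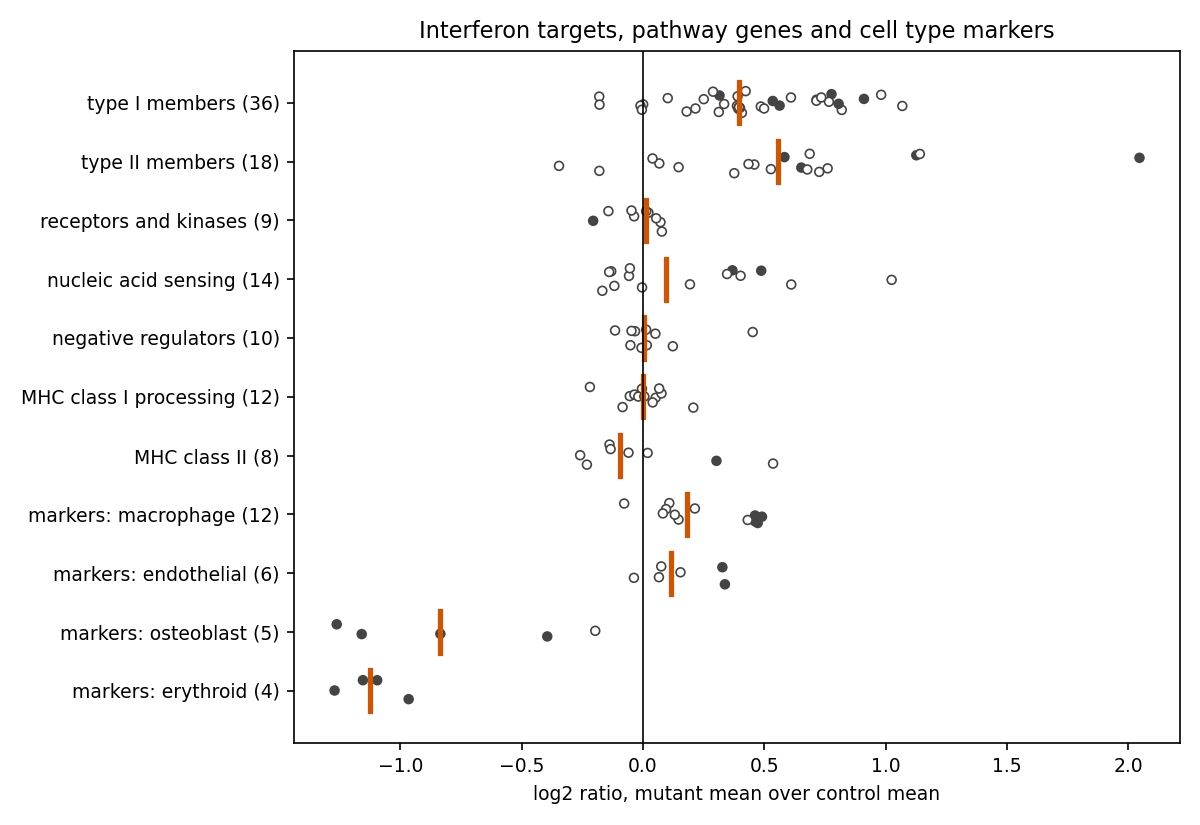
Log2 ratio as deposited, before the GC and length subtraction, of each gene in the type I and type II lists, in the lists around them and in 4 marker lists. Filled points have an unadjusted p under 0.05 and orange bars mark medians. Receptor, negative regulator and MHC class I genes centre on 0, macrophage markers at 0.18, type I targets at 0.40 and type II targets at 0.55.

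The whole table has a trend of the ratio on the GC content of transcripts, taken over 13127 protein-coding genes. The median log2 ratio was 0.18 in the eighth of these genes with the least GC and -0.12 in the eighth with the most. The members were GC-poor, with a median of 48.1% against 50.8% for all genes, and the PYHIN and GBP genes more so (40.7% and 44.6%). When the trend on GC content and length was subtracted, the median of the members went from 0.40 to 0.36, and 63 of 77 again had a positive log2 ratio. The PYHIN median went from 0.62 to 0.41 and the GBP median from 0.71 to 0.65, whereas the type I median went from 0.40 to 0.45. The type II median became 0.48, which left the 2 classes 0.03 apart. The p-values were recomputed from those of the authors. At an unadjusted p under 0.05, 10 members were then higher (7.02% of all genes were) and 1 was lower (6.50%). None of the 77 passed at an adjusted p under 0.05 (0.194% of all genes). Of the 14 members with a deposited p under 0.05, 6 had one after the subtraction and 8 did not, and 5 others came in. The 8 include all 3 of the GBP genes, the IRG gene Iigp1 and the PYHIN gene Ifi203, beside Ifit2 and Trim30a. Recomputed in this way, the authors' unadjusted p of 0.0553 for Isg15 became 0.00299 (recomputed adjusted p = 0.175). For Ifi27l2a the authors' 0.0508 became 0.00116 (recomputed adjusted p = 0.134), and for Gbp6 0.00947 became 0.142. For Gbp7 and Gbp2b the recomputed unadjusted p was 0.2004 and 0.193, against 0.0286 and 0.0498 from the authors. For Iigp1 the authors' 0.0149 became 0.446, and for Ifi203 0.0363 became 0.808. The trend was fitted separately to the log2 ratios and to the p-values, so a recomputed p and its log2 ratio can part. For Ifi202b the authors' unadjusted p of 0.104 became 0.911, while its log2 ratio went from 4.52 to 4.13. The log2 ratio went from 2.05 to 1.88 for Gbp6, from 0.65 to 0.51 for Gbp7 and from 1.13 to 1.02 for Gbp2b. It went from 0.58 to 0.28 for Iigp1 and from 0.99 to 0.64 for Ifi203.

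**Figure D5:**
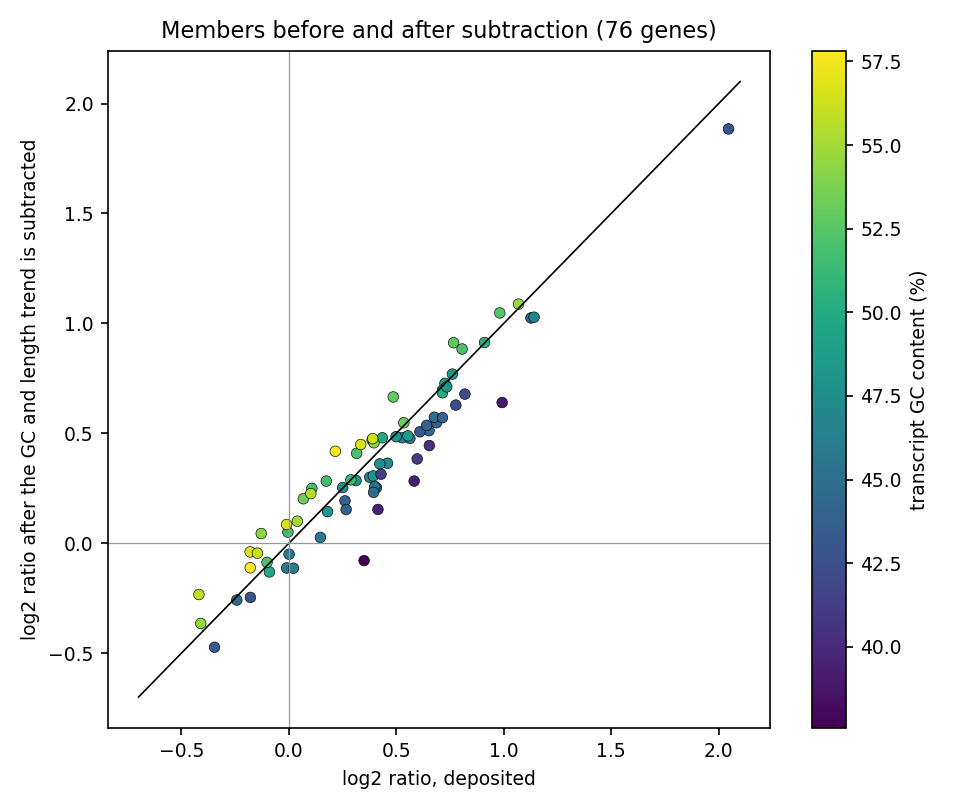
Log2 ratio of 76 members (without Ifi202b, which would stretch the axes) as deposited and after subtraction of the trend on GC content and length, coloured by transcript GC content in percent; the line marks equal values. GC-poor members move down and GC-rich members up, and most remain above 0.

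The promoter windows divided the members as follows. The 33 members with the response element core had a median log2 ratio of 0.46, with 30 higher in the mutant, and the 25 with a window without it had 0.17, with 16 higher. The 19 members without a window had 0.50. Over all genes of the table, the 451 with this core had a median of 0.05, with 259 higher. The type I targets printed above stood at 0.77 for Isg15, 0.61 for Ifit1 and 0.81 for Oas1a, and the type II targets at 0.76 for Gbp2 and 0.38 for Irgm2, while Ifitm5 stood at -0.42. Ifitm5 is the lowest of the 25 members without the core in their window, which reached 4.52 at Ifi202b.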

How the data were processed

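The submitters' processing notes name STAR 2.6.1d, Partek and mm10 and give no roles. How genes were annotated, counted and normalised is not given in the sources used here. The file headers name a gene-specific analysis comparing knockout (the mutant group) with wild type (the control group). The authors deposited group means, a normalised signal on a linear scale. For all 17631 genes their total is 4 times the 2 means added together (tolerance 1e-06), so it is a signal and no read count. The deposited ratio is the mutant over the control mean. The signed fold change restates it as a score, per the file headers. The deposited p-value is the authors', and the FDR, called adjusted p here, equals its Benjamini-Hochberg adjustment over all genes. Depth per library is unknown, and the p-values rest on spread among libraries that may be technical in part.

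Log2 ratios, counts and medians were computed in Python 3.11.15 (pandas 2.3.3). All 77 members were matched to GENCODE M21 (GRCm38) by symbol. The trend on GC content and log2 exonic length was fitted to the log2 ratio and to the signed z of each p with mgcv 1.9.3 (R 4.3.3), on protein-coding genes whose larger group mean was 1 or more, and the fit was tested on simulated data holding a known trend. No list was tested: lists are described by counts and medians. The members and lists were chosen with earlier results of these data known. Named genes were the 2 most abundant and the 2 with the lowest p in each role, fixed landmarks (Stat2, Irf1, Irf7, Irf9, Isg15, Usp18, Ifitm5), Runx2, and up to 2 genes per surrounding list by p or by level; further members were added after their values were seen. Not every gene taken by that rule is named, and 2 members are not reported here by name, though the counts and medians over lists include them.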

Additional observations from a re-analysis of the deposited data

How the results depend on the processing

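No member was called at an adjusted p under 0.10 (3.64% of all genes), after the GC and length subtraction, or with p-values adjusted anew over only those genes whose larger group mean reached 1 (63 members) or the median of all genes (18). A minimum log2 size of 1 and leaving out 8 members better known for other roles could add no call. Those 8 include Irf8, which the class lists count as a type II target. Without the 8, the type II median was 0.58 against 0.55 in the main analysis, and 62 of 69 members were higher. The count over all genes went from 139 to 34 under the subtraction. Scaling both groups to equal sums shifts every log2 ratio by 0.14. The sums were 955256 in mutants and 1050684 in controls, and Amelx made up most of that gap (112170 and 174950). The scaling gave medians of 0.54 for the members, 0.53 for type I and 0.69 for type II targets. Under it the median of all genes became 0.14 and 71.8% of all genes had a higher mean, beside 69 of the 77 members. At or above the median level, where fewer genes remain, 14 of 18 members were higher and 4 (22.2%) were so at an unadjusted p under 0.05, against 11.5% of all genes at that level, the type II median was 0.69, and type I minus type II was -0.29. That difference was -0.16 in the main analysis and -0.027 after the subtraction. Leaving out the GBP and PYHIN genes, an alternative chosen after seeing the data, gave a type II median of 0.26 and a reversed difference of 0.14. Ifitm2 turned from -0.13 to 0.0085 under equal sums and 0.044 under the subtraction. Leaving out Ifi202b moved the members' median from 0.399 to 0.397. No paired analysis was possible because the table has no values per library; for the same reason leaving out replicates, edgeR and DESeq2 were not run. Genes within the middle range of the members' levels (1.30 to 10.9) were called in 38 of 4672 cases, with a log2 size of at least 0.63.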
